A study of Homo sapiens with 4 samples.

Results

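The zinc finger gene clusters of chromosome 19 were described in ChIP-seq maps of DPF2 and of crotonylated histone H3 lysine 14 (H3K14cr) from K562, an established human erythroleukemia cell line. Their members were 9800 tiles of 1 kb, out of 59119 on chromosome 19 and 3093770 over 24 chromosomes, taken from 5 intervals of the hg19 build that are numbered here along the chromosome. Cluster 1 was chr19:19900001-24400000 (4.5 Mb), cluster 2 chr19:36900001-38300000 (1.4 Mb), cluster 3 chr19:44400001-44900000 (0.5 Mb), cluster 4 chr19:52400001-53900000 (1.5 Mb) and cluster 5 chr19:57000001-58900000 (1.9 Mb). The other 49319 tiles of the chromosome served as the comparison. The intervals were set by position and not by reads, though with earlier results of these data known. Of the member tiles, 9102 held at least 1 read in at least 1 library and are called covered.

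All 4 libraries came from wild type K562 cells, fixed with formaldehyde and sonicated, with no treatment named. An antibody against DPF2 was used for 2 of them and an antibody against H3K14cr for the other 2. No input or control antibody library was analysed here, so a level counts all reads at a place, whether or not the antibody enriched them. K562 is a single cultured line, and no label says whether replicates were grown separately.

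Depth was 7787444 and 13317496 reads in the DPF2 libraries, then 10880366 and 17369133 in those of H3K14cr. Levels are given in CPM, a library's reads rescaled to 1000000 in all. Inside the clusters this came to 2.52, 4.31, 3.33 and 5.31 reads per covered kb in the same order. Over 1 kb tiles of the clusters replicates of the same antibody agree within sampling noise, with a chi-square per degree of freedom of 0.985 for DPF2 and 1.01 for H3K14cr. They were therefore counted as 1 sample per antibody (n = 1). Over 98 windows of 100 kb in the clusters the values were 1.32 and 1.19, somewhat above sampling noise, against 1.61 to 2.65 between antibodies and 0.95 and 0.963 for the same pairs in the rest of the chromosome. Intervals below are at 95% confidence and cover counting error only, so that over long stretches of the clusters they are too narrow.

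Zinc finger genes of these clusters mostly encode KRAB zinc finger proteins, DNA-binding repressors that arose by repeated local duplication. A KRAB domain recruits TRIM28 (also known as KAP1), which brings the methyltransferase SETDB1 and the mark H3K9me3, found on silenced transposable elements and, in many cell types, over the zinc finger genes themselves. DPF2 is a subunit of the BAF chromatin remodelling complex whose double PHD finger binds histone tails acylated at H3K14, crotonylation included. Crotonylation and acetylation at this lysine are associated with open promoters and enhancers.

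The content of the intervals was not checked against an annotation of their own build. In the GRCh38.p14 gene table, whose coordinates were not used, 250 of 517 protein-coding genes with a ZNF number as symbol lay on chromosome 19 (48.4%), where they made up 17.2% of 1451 protein-coding genes. The longest run of such genes with no other protein-coding gene between them counted 27, from ZNF737 to ZNF681. Members of these families share sequence, and how reads that map to several places were treated is not given in the sources used here. Clusters 1 to 5 held 12.3%, 4.79%, 4.60%, 2.20% and 1.16% of tiles without a read, against 9.90% in the rest of the chromosome and 16.0% over the genome.

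Reads of both antibodies were sparse over the clusters. Over all 5 together the level was 0.324 CPM per covered kb in both DPF2 libraries and 0.306 in both H3K14cr libraries. The rest of chromosome 19 stood at 0.731 and 0.721 CPM for DPF2 and 0.775 and 0.770 for H3K14cr. The clusters thus lay below the rest of their chromosome in all 4 libraries, at 0.442 and 0.449 of its level for DPF2 and 0.395 and 0.397 for H3K14cr. They also lay below the genome mean of 0.385 CPM, but clusters 2 to 5 without cluster 1 did not, at 0.413 CPM for DPF2 and 0.395 for H3K14cr. They held 0.295% of DPF2 reads and 0.278% of H3K14cr reads. No tile in the top 0.1% of covered tiles by level in all 4 libraries at once lay in a cluster, against 18 in the rest of the chromosome and 789 over the genome.

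The 5 clusters were not alike. Cluster 1, the pericentromeric one and the longest, was the lowest, with 0.205 and 0.209 CPM per covered kb for DPF2 and 0.188 and 0.192 for H3K14cr. Cluster 2 had 0.351 and 0.353 for DPF2 and 0.329 and 0.332 for H3K14cr. Cluster 3 had 0.369 and 0.377 for DPF2 and 0.365 and 0.348 for H3K14cr, and cluster 4 had 0.374 and 0.368 for DPF2 and 0.358 and 0.362 for H3K14cr. Cluster 2 lay below clusters 3 and 4 for each antibody, while the libraries of clusters 3 and 4 overlapped. Cluster 5, near the end of the long arm, was the highest, with 0.502 and 0.498 for DPF2 and 0.484 and 0.472 for H3K14cr, or 0.688 and 0.619 of the rest of the chromosome for the antibodies' means. Without cluster 1 the other 4 clusters stood at 0.569 of the rest for DPF2 and 0.511 for H3K14cr, so that the low level against the chromosome was not that of cluster 1 alone.

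**Figure D1:**
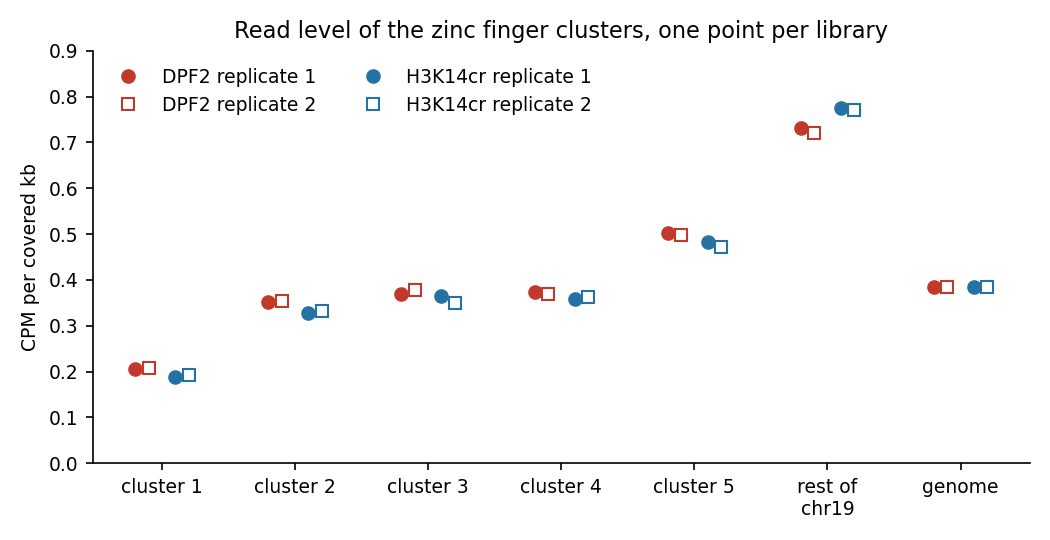
CPM per covered kb, 1 point per library, in the 5 clusters, the rest of chromosome 19 and the genome (DPF2 red, H3K14cr blue, replicate 1 filled, replicate 2 open). Every cluster lies below the rest of the chromosome, cluster 1 lowest and cluster 5 highest. DPF2 points lie above the H3K14cr points in every cluster and below them in the rest.

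The deficit was a little larger for H3K14cr than for DPF2. On the log2 scale the level of the clusters relative to the rest of the chromosome was -1.17 for DPF2 and -1.34 for H3K14cr, a difference of 0.17. Both DPF2 libraries lay above both H3K14cr libraries. The two-sided exact permutation test over the libraries gave p = 0.33, the smallest p that 2 against 2 libraries allow. The difference had the same sign in cluster 1 alone (0.21) and in clusters 2 to 5 (0.15).

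Sites were called as 1 kb tiles holding at least 3 times the background, which was the chromosome mean or the mean over the surrounding 20 kb, whichever was larger, at a Benjamini-Hochberg adjusted Poisson p of at most 0.001, in both libraries of an antibody. Touching tiles were merged. Over the genome 0.215% of covered tiles were called for DPF2 and 0.416% for H3K14cr. The clusters held 16 DPF2 sites in 16 tiles (0.176% of their covered tiles) and 50 H3K14cr sites in 54 tiles (0.593%), while 0.581% and 1.10% of tiles were called in the rest of the chromosome. Both shares were thus below that of the rest of their chromosome. Against the genome, the H3K14cr share was higher. The DPF2 share, from 16 tiles, was near that of the genome (0.176% against 0.215%), and whether it was lower was not tested.

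Counted per covered Mb, the clusters had 1.76 DPF2 sites (1.00 to 2.85) and the rest of the chromosome 5.56, from 247 sites. The ratio of these densities was 0.316 (0.178 to 0.524). For H3K14cr the clusters had 5.49 sites (4.08 to 7.24) and the rest 9.56, from 425 sites, a ratio of 0.574 (0.420 to 0.771). Cluster 1 accounted for much of the H3K14cr deficit. It held no DPF2 site, which allows up to 0.935 per Mb, and 1 H3K14cr site. With DPF2 replicate 1 left out 41 DPF2 sites were called, and with replicate 2 left out 24, as a tile then had to pass in 1 library. DPF2 sites of both libraries numbered 4, 2, 3 and 7 in clusters 2 to 5, and H3K14cr sites 10, 8, 8 and 23. Over clusters 2 to 5 the DPF2 ratio to the rest was 0.558 (0.314 to 0.925) and the H3K14cr ratio 0.994 (0.724 to 1.34), and the interval of the latter holds both a lower and a higher density than that of the rest.

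These densities depend on the background that a tile was set against. The chromosome mean lies far above the level of the clusters, so a tile there had to rise further over its surroundings than a tile elsewhere on the chromosome. At a fold of at least 5 the clusters held 1 site of each antibody. With the surrounding 20 kb alone as background, an alternative added after seeing the data under which 0.238% of covered tiles of the genome were called for DPF2 and 0.462% for H3K14cr, the clusters held 36 DPF2 and 87 H3K14cr sites. The DPF2 density ratio to the rest was then 0.641 (0.440 to 0.910), and that of H3K14cr was 0.935 (0.735 to 1.18). Clusters 2 to 5 had 6.98 DPF2 sites per Mb against 6.17 in the rest, a ratio of 1.13 (0.777 to 1.61). They had 14.9 H3K14cr sites per Mb against 10.2 in the rest, and the ratio was 1.46 (1.13 to 1.86). Leaving out cluster 1 was not planned either. Taken singly, only cluster 5 had an H3K14cr interval above 1 (1.67, 1.13 to 2.39). Those of clusters 2 (0.721 to 2.02), 3 (0.977 to 3.81) and 4 (0.705 to 1.92) reached below 1. Cluster 1 remained sparse, with 10 H3K14cr sites (ratio 0.248, 0.118 to 0.460) and no DPF2 site.

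**Figure D2:**
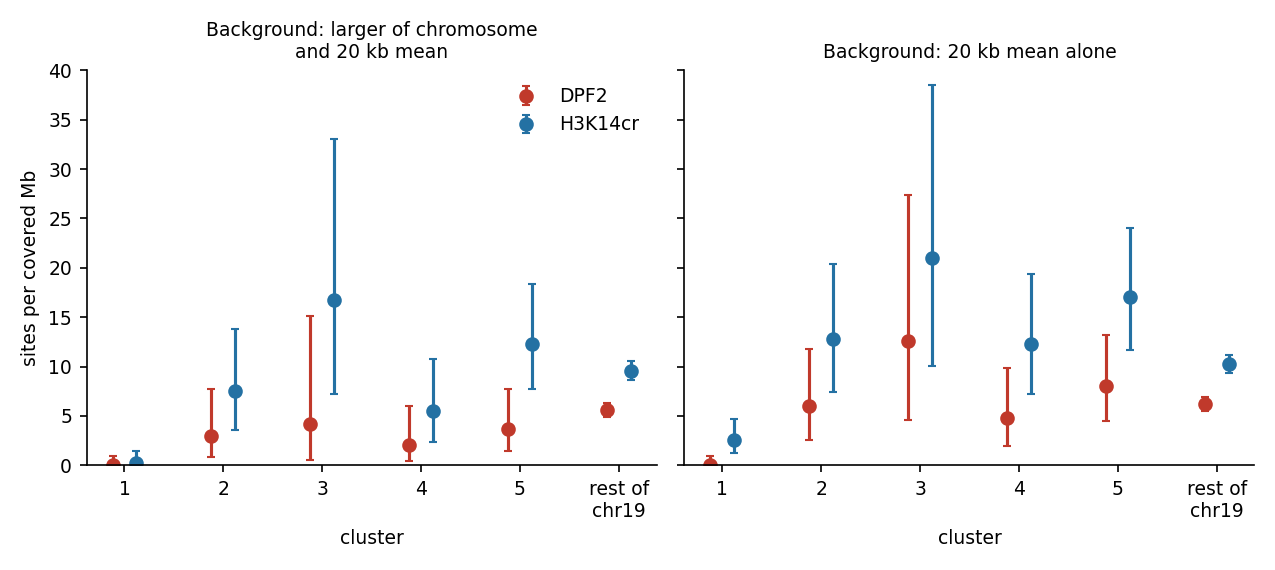
Sites per covered Mb (vertical axis) of DPF2 (red) and H3K14cr (blue) in clusters 1 to 5 and in the rest of chromosome 19, with exact Poisson intervals at 95% as bars. On the left the background of a tile was the higher of 2 means, over the chromosome and over the surrounding 20 kb, and on the right it was the 20 kb mean alone. Cluster 1 stays lowest on both sides, while clusters 2 to 5 move up on the right. There they lie above the rest for H3K14cr. For DPF2 clusters 3 and 5 lie above the rest, cluster 2 just below it and cluster 4 further below. The DPF2 bars of clusters 2 to 5 on the right all span the value of the rest.

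Sites of the clusters were of like fold to those elsewhere but lower in reads. The median fold over background was 4.19 for the 16 DPF2 sites (3.39 to 5.71) and 3.88 for the rest of the chromosome (3.02 to 19.6). For H3K14cr it was 4.03 over 50 sites (3.13 to 5.59) and 3.89 in the rest (3.0 to 7.24). The median level of the highest tile was 2.94 CPM for DPF2 and 2.86 for H3K14cr in the clusters, against 3.38 and 3.9 in the rest. The highest cluster sites reached 5.28 and 5.71 CPM, while the rest reached 19.7 and 7.82. No cluster site had a fold of 10 or more, against 4 DPF2 sites of the rest.

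Against their own 20 kb the same cluster sites stood higher than those of the rest. The median was 5.64 for DPF2 against 3.91, and 5.84 for H3K14cr against 3.96. Part of this is set by the call, because a cluster tile had to pass the chromosome mean. Called without that floor, the medians were 5.03 against 3.96 for DPF2 and 5.42 against 3.98 for H3K14cr. A tile with few reads also needs a larger fold to pass the Poisson test, and the part of that in the higher folds was not tested.

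**Figure D3:**
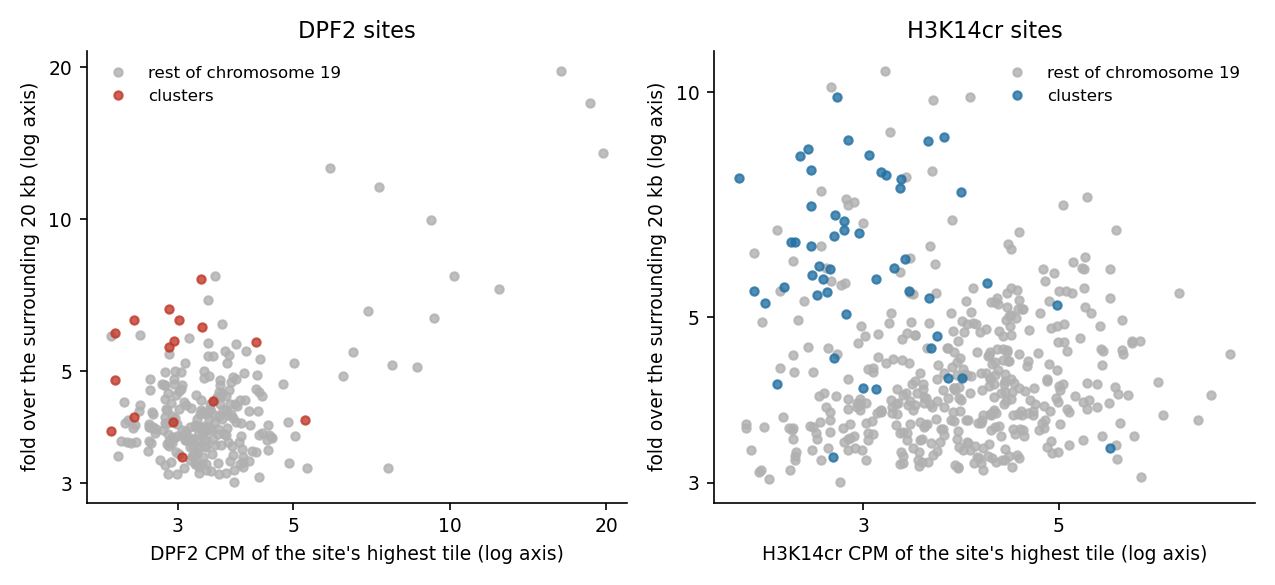
Each point is a site of chromosome 19, placed by the CPM of its highest tile (horizontal, log axis) and by its fold over the surrounding 20 kb (vertical, log axis), for DPF2 on the left and H3K14cr on the right, with cluster sites in colour and the rest in grey. Cluster sites lie towards the left and upper side, with medians of 2.94 CPM and 5.64-fold for DPF2 and 2.86 CPM and 5.84-fold for H3K14cr. The very high DPF2 sites at the right lie in the rest of the chromosome.

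Cluster sites covered 1 or 2 tiles. Every DPF2 site was a single tile, and 46 of 50 H3K14cr sites were (92.0%), against 95.5% and 84.7% in the rest. With the surrounding 20 kb alone as background the order turned for H3K14cr, with 78.2% of cluster sites and 83.0% of those in the rest in a single tile. With the chromosome floor, the 4 widest H3K14cr sites covered 2 tiles each, at chr19:52772001-52774000 in cluster 4 and at chr19:57946001-57948000, chr19:58513001-58515000 and chr19:58739001-58741000 in cluster 5. Averaged around the summit, with the summit taken from replicate 1 and the profile from replicate 2, the width at the middle height was 1290 bp for DPF2 and 1317 bp for H3K14cr, against 954 and 1306 bp in the rest. With the replicates exchanged the DPF2 width was 978 bp, so a wider DPF2 profile in the clusters did not hold over the libraries. The H3K14cr summit stood 7.71 times over its flanks in the clusters and 4.75 times in the rest, and the DPF2 summit 5.72 and 5.15 times. With the replicates exchanged these were 8.12 and 4.85 for H3K14cr and 5.52 and 5.27 for DPF2. Part of the higher rise is set by the call, because a cluster tile had to pass the chromosome mean.

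**Figure D4:**
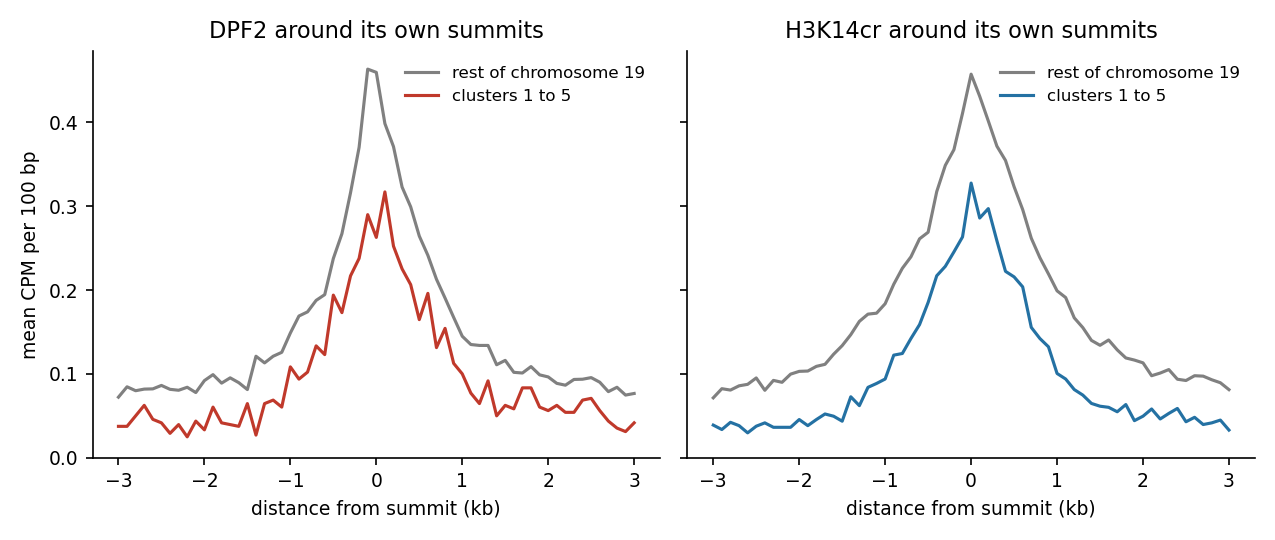
Mean CPM per 100 bp (vertical axis) by distance from the summit in kb, with summits from replicate 1 and reads from replicate 2 of the same antibody, for sites called over the surrounding 20 kb alone (36 DPF2 and 87 H3K14cr sites in the clusters, 274 and 454 in the rest). Cluster profiles are lower at both summit and flank. The rise over the flanks is 6.22 times for DPF2 and 7.23 times for H3K14cr in the clusters, against 5.26 and 4.77 in the rest.

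Among the highest sites, chr19:58694001-58695000 in cluster 5 led for DPF2. Its DPF2 libraries held 4.11 and 4.36 CPM (32 and 58 reads) and its H3K14cr libraries 3.68 and 4.61 CPM (40 and 80 reads). DPF2 was 5.71-fold and H3K14cr 5.56-fold over background, and the antibodies overlapped. The ratio of DPF2 to H3K14cr, from pooled reads scaled by library totals, was 1.00 (0.755 to 1.33). At chr19:58790001-58791000, second in cluster 5 for DPF2 and first for H3K14cr, DPF2 had 3.34 and 3.68 CPM and H3K14cr 5.05 and 4.89, so that both H3K14cr libraries were higher. Second there for H3K14cr was chr19:57791001-57792000, with 3.68 and 3.45 CPM (5.12-fold) against 2.70 and 2.25 for DPF2. Its ratio was 0.683 (0.477 to 0.966).

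Sites of a cluster were ranked by the fold in their lower library, while the folds printed are means of both libraries. In cluster 2 the 3 DPF2 and 3 H3K14cr sites ranked highest lay between chr19:36980001-36981000 and chr19:37178001-37179000. The third DPF2 place, given to chr19:37019001-37020000, was tied. The site chr19:38085001-38086000, towards the other end of the interval, had the same DPF2 fold in its lower library (3.91) and a mean of 4.38-fold. By mean fold, chr19:37709001-37710000 in the middle of the interval was second for H3K14cr (5.36-fold). At chr19:36980001-36981000 DPF2 had 2.82 and 3.83 CPM and H3K14cr 3.31 and 3.8, with 5.06-fold and 5.13-fold over background. At chr19:37019001-37020000 the values were 3.34 and 2.55 CPM for DPF2 and 4.41 and 3.34 for H3K14cr, the highest H3K14cr fold of all cluster sites (5.59). The libraries of the antibodies overlapped at the first of these places. At the second both H3K14cr libraries were higher, the closest pair by a margin that rounding hides (3.3393 against 3.3387 CPM). The site chr19:37064001-37065000 had 5.08-fold DPF2 (3.08 and 3.6 CPM) and was not called for H3K14cr, whose libraries differed from one another (1.75 and 3.86 CPM). The third H3K14cr site by rank was chr19:37178001-37179000, with 3.31 and 3.45 CPM and 4.88-fold.

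The median fold of sites in cluster 3 was 3.61 for DPF2 and 3.79 for H3K14cr, and in cluster 4 it was 4.39 and 4.33, against 3.76 and 4.02 in cluster 5. DPF2 sites of cluster 3 lay at chr19:44669001-44670000 (2.70 and 2.25 CPM, 3.76-fold) and chr19:44617001-44618000 (2.44 and 2.10 CPM, 3.45-fold). Its leading H3K14cr sites were chr19:44439001-44440000 (2.94 and 3.34 CPM, 4.53-fold), chr19:44455001-44456000 (3.12 and 2.65 CPM, 4.16-fold) and chr19:44598001-44599000 (2.67 and 2.59 CPM, 3.79-fold). DPF2 was uneven between libraries at the first of these, with 2.82 and 0.976 CPM.

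In cluster 4 DPF2 sites lay at chr19:52531001-52532000 (2.70 and 3.08 CPM, 4.39-fold), chr19:52693001-52694000 (3.08 and 2.78 CPM, 3.97-fold) and chr19:52772001-52773000 (2.57 and 3.45 CPM, 4.58-fold). All 3 were also sites of H3K14cr. The leading H3K14cr site of that cluster, chr19:52800001-52801000, had 3.22 and 3.40 CPM (4.77-fold), and DPF2 there had 1.67 and 1.65 CPM. Cluster 1 had a single site, of H3K14cr, at chr19:23941001-23942000. It held 2.11 and 2.53 CPM for H3K14cr (3.35-fold) and 1.80 and 1.73 CPM for DPF2, which was not called.

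Most DPF2 sites of the clusters coincided with H3K14cr sites. Of 16, 13 touched one (81.3%, Wilson interval 57.0 to 93.4%), against 167 of 247 in the rest (67.6%, 61.5 to 73.1%). Conversely, 13 of 50 H3K14cr sites touched a DPF2 site (26.0%, 15.9 to 39.6%), against 167 of 425 (39.3%, 34.8 to 44.0%). The intervals of clusters and rest overlapped in both directions. Called in DPF2 replicate 2 alone, DPF2 sites touched 58.0% of the H3K14cr sites of the clusters, and called on summed libraries 63.3%, so this share depends on how many DPF2 sites are called. By tile, 13 tiles were called for both antibodies, 3 for DPF2 alone and 41 for H3K14cr alone.

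DPF2 reads were raised as well where H3K14cr alone was called. At those 41 tiles the median DPF2 fold was 2.94 (1.98 to 3.67), just under the minimum of 3, and at the 337 such tiles of the rest it was 2.69. Replicate by replicate the DPF2 libraries were the shallower, and the part of depth in these counts was not tested. The 3 DPF2 sites without an H3K14cr site were chr19:37064001-37065000, chr19:57049001-57050000 and chr19:58892001-58893000.

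The balance between the antibodies differed between the clusters at large and their sites. Over all covered tiles the DPF2 to H3K14cr ratio was 1.06 (1.05 to 1.07) in the clusters and 0.939 (0.937 to 0.942) in the rest, 1.13 times higher in the clusters (1.11 to 1.14). It was 1.09, 1.07, 1.05, 1.03 and 1.05 in clusters 1 to 5, each above the rest. Over the 4 pairings of a DPF2 with an H3K14cr library the ratio was 1.06 each time in the clusters and ran from 0.931 to 0.95 in the rest. Away from sites of either antibody it was 1.11 (1.10 to 1.12) in the clusters, 0.956 in the rest and 1.01 over the genome. Pooled over tiles of sites it was the other way round, with 0.764 (0.729 to 0.801) in the clusters against 0.818 (0.808 to 0.829) in the rest. This was 0.934 times the rest (0.890 to 0.980). Site by site, the median ratio at H3K14cr sites was 0.718 in the clusters and 0.715 in the rest. At DPF2 sites it was 0.953 and 0.992. Tiles called for H3K14cr alone were 41 of 57 in the clusters and 337 of 595 in the rest, and the part of this mix in the pooled ratio was not tested. Site tiles were called on the same reads, and the scale of the ratio itself depends on the library totals, whereas the contrast of clusters with the rest does not.

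The same held over windows of 100 kb. Of 97 cluster windows with enough covered tiles, 67 had a ratio above 1 (69.1%), against 144 of 454 in the rest (31.7%). The median was 1.07 (0.9 to 1.47) in the clusters and 0.95 (0.759 to 1.27) in the rest. The highest ratio was in chr19:22800001-22900000 (249 DPF2 and 226 H3K14cr reads, 1.47, 1.23 to 1.77) and the next in chr19:22000001-22100000 (1.36, 1.21 to 1.54), both in cluster 1. The lowest was in chr19:53200001-53300000 of cluster 4 (0.9, 0.802 to 1.01).

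Read level moved with this ratio in the rest of the chromosome and less evenly in the clusters. Across windows the Spearman correlation of mean level and ratio was -0.378 over the 97 cluster windows and -0.666 over the 454 of the rest, as a description of windows that share libraries and depth and whose ratio and level come from the same reads. Over clusters 2 to 5 the correlation was -0.187. Within single clusters it was -0.381, -0.314, 0.10, 0.236 and -0.761 in clusters 1 to 5, over 44, 14, 5, 15 and 19 windows, so that its sign was not the same in all. Windows of the rest with as few reads as the clusters also had ratios above 1, and the part of read level in the contrast was not tested. The window at the far end of cluster 5, chr19:58800001-58900000, had the highest level of all cluster windows (DPF2 1.06 and H3K14cr 1.13 CPM per covered kb), a ratio of 0.927, and 2 DPF2 and 4 H3K14cr enriched tiles. The lowest, chr19:20600001-20700000 in cluster 1, had 0.0588 and 0.0543 CPM and no site.

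**Figure D5:**
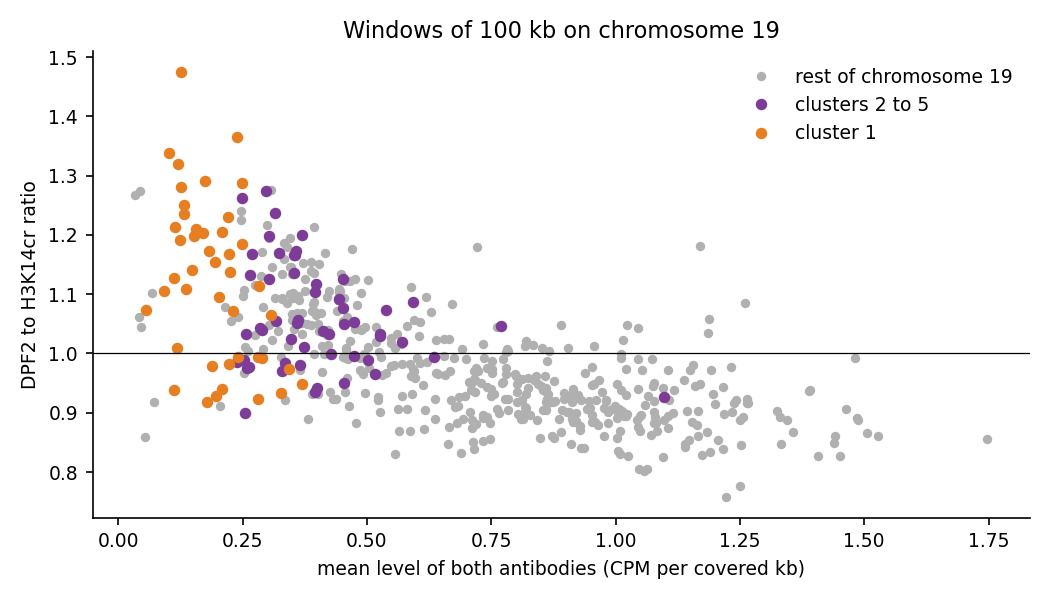
Each point is a window of 100 kb on chromosome 19, placed by the mean level of both antibodies in CPM per covered kb and by the DPF2 to H3K14cr ratio, with cluster 1 in orange, clusters 2 to 5 in purple and the rest in grey; the line marks a ratio of 1. Cluster 1 windows lie at the low end with ratios up to 1.47, and the single cluster window above 1 CPM is the end of cluster 5. Grey windows of low level also lie above the line.

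Tile by tile, the antibodies were compared with limma on log2(CPM + 0.5) over 12225 tiles of the genome enriched for either, of which 57 lay in the clusters. In the clusters 1 tile was higher in DPF2 (1.75%, where 4.19% of all tiles tested were) and 13 were higher in H3K14cr (22.8%, where 31.4% were). The libraries of the antibodies did not overlap, DPF2 higher, at 2 of the 57 tiles (3.51%, against 10.6% of all tiles tested) and, H3K14cr higher, at 43 (75.4%, against 59.9%), tiles that had been called on the same reads. In the rest of the chromosome the limma counts were 37 and 222 of 595 tiles. The median difference of DPF2 from H3K14cr was -0.34 in the clusters, -0.33 over all tiles tested and -0.36 in the rest. Of those 13 tiles, 12 were called enriched for H3K14cr only, and the 1 tile higher in DPF2 for DPF2 only. They entered the comparison through the antibody in which they are high, so these counts and medians are a description only. With every tile averaging 10 reads or more tested, enriched or not, limma called 0 and 4 of 433 cluster tiles (0% and 0.924%), with 78 at an unadjusted p under 0.05 in either direction, against 0.202% and 1.19% over the genome. With median-of-ratios scaling, which shifted the median of all tiles tested to -0.02, the counts became 2 and 0, so the number of H3K14cr calls rests on scaling by library totals. Without H3K14cr replicate 1 the counts were 0 and 2, and without H3K14cr replicate 2 they were 0 and 3. In these 3 fits 11, 11 and 15 tiles had an unadjusted limma p under 0.05 in either direction.

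The tile higher in DPF2 was chr19:58892001-58893000, in the last 100 kb of cluster 5. DPF2 had 5.52 and 5.03 CPM there and H3K14cr 3.49 and 3.34, so that both DPF2 libraries were above both H3K14cr libraries. The difference was 0.56 on the log2 scale (SE 0.18, limma adjusted p = 0.0102), and over the alternatives it passed the threshold in 9 of 12, with a highest adjusted p of 0.12. DPF2 was 4.0-fold and H3K14cr 2.06-fold over background.

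The tiles furthest towards H3K14cr differed by less than 1 on the log2 scale. At chr19:58739001-58740000 H3K14cr had 3.58 and 2.76 CPM and DPF2 1.16 and 1.73, a difference of -0.93 (SE 0.23, limma adjusted p = 0.0012). At chr19:58144001-58145000 it had 2.76 and 2.82 CPM and DPF2 0.899 and 1.73, a difference of -0.90 (limma adjusted p = 0.00245). The groups did not overlap at either.

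The next 3 were chr19:52800001-52801000 (-0.82), chr19:44598001-44599000 (-0.81) and chr19:37709001-37710000 (-0.74), with limma adjusted p of 0.00255, 0.00544 and 0.00409. In the second of these DPF2 had 1.03 and 1.58 CPM, and in the last 2.05 and 1.95 against 3.22 and 4.20 for H3K14cr. The 5 tiles passed the threshold in 8 to 10 of 12 alternatives each. Since the libraries of an antibody are counted as 1 sample, these p-values measure the spread between libraries that may be technical preparations. Over 1 kb tiles of the clusters that spread was within sampling noise.

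Within clusters 2 to 5 the sites were spread along the DNA, and long stretches held none. Measured between neighbouring sites of either antibody, the median distance was 46.8 kb in the clusters and 49.5 kb in the rest. Cluster 1, with 1 site, gave no distance. It was 73.0 kb in cluster 2, 42.0 in cluster 3, 79.5 in cluster 4 and 34.0 in cluster 5. The longest stretch with no site was chr19:19900001-23941000 in cluster 1 (4041 kb), most of that interval. In clusters 2 to 5 it was chr19:37330001-37709000 (379 kb), chr19:44712001-44900000 (188 kb), chr19:52902001-53400000 (498 kb) and chr19:57107001-57752000 (645 kb). That of cluster 3 ran from its last site to the end of the interval. The longest stretch of the rest was not measured.

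Some of these stretches depend on the chromosome mean as floor. With the surrounding 20 kb alone as background, 10 sites appeared in cluster 1, and its longest empty stretch shortened to 2252 kb, chr19:21689001-23941000. All 10 were sites of H3K14cr, of 1.04 to 2.32 CPM, 4.36-fold to 7.86-fold over their surroundings. The widest and nearest to the start was chr19:19976001-19978000, with 1.65 and 2.07 CPM for H3K14cr and 1.03 and 1.35 for DPF2, a 7.52-fold and a 4.60-fold rise. DPF2 was raised at this and the other 9 sites without being called, by 2.47-fold to 5.22-fold. In 35 of the 44 windows of 100 kb in cluster 1 no site was called even so, against 10 of 53 in clusters 2 to 5 and 157 of 454 in the rest.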

How the data were processed

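The authors' deposited signal files list reads per 100 bp bin for 4 K562 libraries, scaled to 10000000 reads and rounded to 2 decimals. The submitters' processing notes name Bowtie2 and the builds hg19 and mm9, and the positions were read as hg19. Duplicate treatment and mapping filters were not given in the sources used here. Dividing each deposited value by that of 1 read gave whole read counts within 0.005 for all but 1, 3, 4 and 0 values of the 4 libraries.

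Bins were assigned to 1 kb tiles by midpoint, and a tile with no read in any library was not covered. Each tile was tested one-sided by Poisson against its chromosome's mean or that of the 10 covered tiles on each side, whichever was larger, and adjusted over 2598309 covered tiles. Density intervals are exact Poisson, those of density ratios and read ratios exact binomial, and those of shares Wilson. Tiles away from sites leave out the 2 neighbours on each side of a site. Windows needed 50 covered kb. Enriched tiles averaging 10 reads or more were compared with limma (trend), on log2(CPM + 0.5), which understates fold changes where reads are few. Alternatives were edgeR's quasi-likelihood test on recovered reads and other tile sizes, folds, backgrounds, scalings and single libraries left out. Calling and comparison were tested on simulated data. The reads carry no molecular identifiers and may repeat the same molecule.

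The text names the 3 sites of highest fold per cluster and antibody (ranked by the lower library), the widest sites, the longest empty stretches and up to 5 tiles in each direction. Windows of extreme level or ratio, sites of DPF2 alone and a site of cluster 1 were named after their values were seen. The intervals and these lists were chosen with earlier results of these data known. No hg19 sequence or annotation was used here, so no gene is placed at a site. Software was R 4.3.3 with edgeR 4.0.16 and limma 3.58.1, and Python 3.11.15 with scipy 1.17.1, pandas 2.3.3, numpy 2.4.6 and matplotlib 3.10.9.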

Additional observations from a re-analysis of the deposited data

How the results depend on the processing

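Over the alternatives run, level ratios of clusters to rest stayed below 1. Density ratios did so with 1 exception, and for H3K14cr the interval reached past 1 with the 20 kb mean alone, the genome floor, at 5-fold and without cluster 1, and for DPF2 at 5-fold. The exception, where the direction turned, was the 20 kb mean alone and cluster 1 left out together, with ratios of 1.13 (DPF2) and 1.46 (H3K14cr, interval 1.13 to 1.86). The pooled DPF2 to H3K14cr ratio stayed above that of the rest over all tiles and below it at site tiles, and site counts moved widely. DPF2 cluster sites numbered 6 with 500 bp tiles, 7 with 2 kb tiles, 1 at a fold of at least 5, 36 with the 20 kb mean alone, 34 with the genome mean as floor, 43 with libraries summed, and 24 to 41 with 1 library left out. H3K14cr sites numbered 20 with 2 kb tiles, 1 at 5-fold, 87 and 81 with the 20 kb mean alone and the genome floor, and 58 with either of its libraries left out. The DPF2 density ratio was 0.12 with the chromosome mean alone, 0.641 with the 20 kb mean alone, 0.619 with the genome floor, 0.558 without cluster 1 and 0.285 to 0.424 with 1 library left out. That of H3K14cr was 0.369 with 500 bp tiles, 0.381 with 2 kb tiles, 0.188 at 5-fold, 0.249, 0.935 and 0.889 with these 3 backgrounds, 0.994 without cluster 1 and 0.499 to 0.505 with 1 library left out. The median DPF2 fold was 4.98, 3.62 and 5.71 with 500 bp tiles, 2 kb tiles and 5-fold, 4.39, 4.38, 5.03 and 4.88 with the chromosome mean alone, 100 kb, 20 kb alone and the genome floor, 3.25 with libraries summed, 4.37 with cluster ends cut by 100 kb, and 3.45 to 4.07 with 1 library left out. For H3K14cr it was 4.87, 3.63 and 5.19 with the tile sizes and 5-fold, 5.42 and 5.30 with 20 kb alone and the genome floor, and 3.97 to 4.0 with 1 library left out. The share of DPF2 sites that touched an H3K14cr site was 0% at 5-fold, where 1 site of each was left, and 70.7% to 87.5% with 1 library left out. The converse share was 13.2% with 500 bp tiles, 0% at 5-fold, 63.3% with libraries summed and 24.1% to 58.0% with 1 library left out, highest without DPF2 replicate 1. The cause of these moves was not tested, except that a higher minimum fold or a lower background changes the calls by construction.

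The cluster level relative to the rest was 0.435 (DPF2) and 0.384 (H3K14cr) with cluster ends cut, 0.434 and 0.374 without tiles near sites, 0.569 and 0.511 without cluster 1, and 0.442 to 0.449 and 0.395 to 0.397 by single library. The DPF2 to H3K14cr ratio of the clusters was 1.38 with median-of-ratios factors, 1.11 without tiles near sites, 1.05 without cluster 1 and 1.06 to 1.06 with 1 library left out; relative to the rest it was 1.16 without tiles near sites and 1.12 to 1.13 with 1 library left out. At site tiles it was 0.993 with median-of-ratios factors and 0.757 to 0.777 with 1 library left out, or 0.921 to 0.954 relative to the rest. Tiles called higher in DPF2 and in H3K14cr numbered 2 and 0 with median-of-ratios factors, 0 and 4 among all tiles of at least 10 reads, and 0 to 2 and 2 to 17 with 1 library left out, when the lone library is assumed to vary like the other antibody's. Profile widths with the replicates exchanged were 978 bp (DPF2) and 1223 bp (H3K14cr). With the replicate number as a block, limma called 1 and 13 tiles, as without it. Deviations between replicates correlated at -0.016 across the antibodies over 12225 tiles. Replicates differ by about sampling noise over 1 kb tiles, so this value cannot show whether the shared numbers pair the libraries. Cluster 1 had the fewest reads, 1.60 to 3.33 per covered kb in each library, and the part of depth in its calls was not tested.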
